A study of Homo sapiens with 8 samples.

Results

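The solute carrier (SLC) genes of the osteosarcoma cell line 143B were examined in libraries labelled NELL1 knockout and in vector control libraries. The members were chosen by name and level: a symbol made of SLC, a family number, a letter and a member number, a value in each of the 8 libraries and a log2 mean over them of 1 or more. SLC2A1, SLC2A3, SLC16A3 and SLC7A11 were set aside by name. Of 364 symbols considered, 63 were blank in every library, 68 had a value in 1 to 7 libraries and 109 were valued in all 8 with a mean under 1. The remaining 124, from 40 SLC families, were the members, among 9016 tested genes. The threshold fell between SLC16A5, with a mean of 1.03, and SLC38A7, with a mean of 0.92.

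143B is an established line derived from the HOS osteosarcoma line. All cells were transfected transiently and taken 48 h later. The 4 control libraries came from cells given a vector plasmid and carry the genotype label control. The 4 knockout libraries came from cells given a NELL1KO plasmid and carry the genotype label NELL1 knockout. The labels name no selection or cloning of transfected cells, and they do not say whether the replicates of a group were separate cultures, so the p-values measure the spread between these libraries, which may be technical. In such bulk RNA, fewer cells with a transcript and less transcript per cell cannot be told apart.

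Solute carriers are membrane proteins that move small molecules by facilitated diffusion, by exchange or by coupling to the gradients of sodium, protons or chloride. Those of the plasma membrane bring in amino acids, sugars, phosphate and metals, those of the Golgi and endoplasmic reticulum load nucleotide sugars and zinc, and the SLC25 family carries metabolites across the inner mitochondrial membrane. In bone-forming cells, phosphate import and the supply of glycine, proline and sulfate serve the making and mineralization of matrix.

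NELL1, the targeted gene, was close to the floor of the deposited log2 scale throughout. It stood at -6.97, -6.97, -4.53 and -5.00 in control libraries 1 to 4 and -4.82, -5.87 and -6.96 in knockout libraries 1, 2 and 4, with a blank in knockout library 3, so its transcript did not check the labels. Of the mesenchymal and osteoblast markers, VIM (10.8 in the controls), SPARC (5.49), TWIST1 (2.15) and PRRX1 (1.89) were well above the floor, COL1A1, RUNX2 and ALPL had means under 1 and COL1A2 was blank in 4 libraries. VIM fell by 0.43 (limma adjusted p = 0.0425, and 0.0507 with the replicate block) and SPARC rose by 0.62 (limma adjusted p = 0.0294). Of the 8 fits that left out a library, 2 kept the VIM call and 1 kept the SPARC call (highest limma adjusted p 0.117 and 0.0897). Of 7 epithelial markers only EPCAM was tested, at 2.59 in the controls, and none of 8 blood and endothelial markers reached a mean of 1. Over the genes with a value in a library, the epithelial list averaged -3.67 to -1.69 in the controls and -3.85 to -1.65 in the knockouts. The blood and endothelial list averaged -5.50 to -4.61 and -5.33 to -4.20. Blanks were left out, so each library averaged a different set of genes, and these ranges do not compare marker levels between libraries or groups. The part of the markers in the results below was not tested.

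Over the 124 SLC genes, the knockout libraries fell into close pairs. Taken as the SD over these genes of one library minus another, the distance was 0.10 to 0.11 within the pairs of knockout libraries 1 and 2 and of 3 and 4. Between those pairs it was 0.43 to 0.46, against 0.29 to 0.44 between a knockout and a control library and 0.10 to 0.31 among the controls. The changes in replicates 1 and 2 and in replicates 3 and 4 are therefore given for the called SLC genes described and for some others, a split made after the libraries had been compared.

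Few SLC genes were called over the 8 libraries, in a share near that of all tested genes, and their changes were modest. The median absolute log2 fold change was 0.17 for the SLC genes and 0.16 for all tested genes. A gene without a call is not thereby unchanged, since opposite changes in the sets of replicates can cancel over the 8 libraries. In the limma fit over all genes, 13 of 124 (10.5%) had a Benjamini-Hochberg adjusted p under 0.05, close to the 13.1% of all tested genes. Of the 13, 5 rose and 8 fell, where 7.02% of all tested genes were called higher and 6.10% lower. The largest rise was that of the mitochondrial dicarboxylate carrier SLC25A10 and the largest fall that of the phosphate importer SLC20A1. None of the 124 differed by 1 log2 unit over the 8 libraries. The median log2 fold change of the 124 was -0.04 and that of all tested genes 0.01, and 71 of 124 lay below 0. The groups did not overlap for 25 SLC genes (20.2%), the 13 called ones included, against 22.9% of all tested genes. Of these, 10 were higher and 15 lower, where 12.5% and 10.4% of all tested genes were. At an unadjusted p under 0.05 there were 39 SLC genes (31.5%), against 29.7%.

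**Figure D1:**
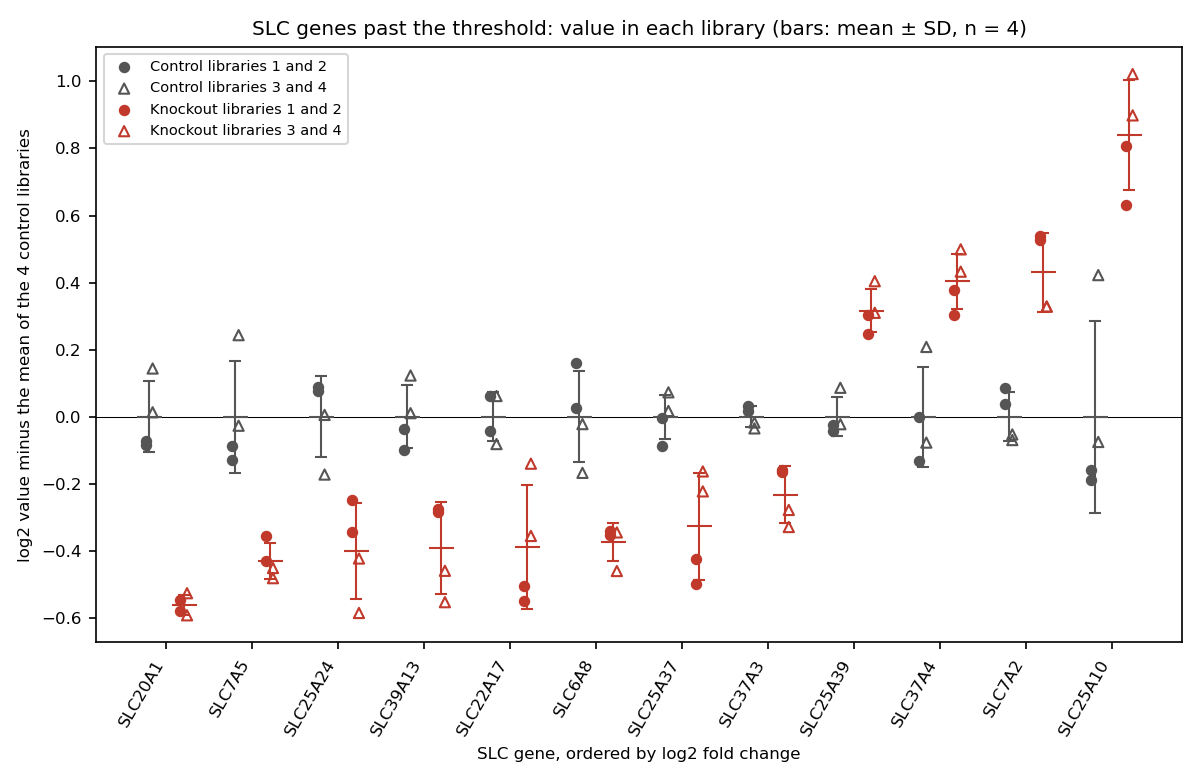
Deposited log2 value of 12 of the 13 called SLC genes in each library, minus the mean of the 4 control libraries (vertical axis, log2 units), with genes ordered by fold change. Grey marks are control and red marks knockout libraries, filled circles are libraries 1 and 2, open triangles are libraries 3 and 4, and bars give the mean ± SD (n = 4). The groups do not overlap for any of the 12 genes, and SLC25A10 at 0.84 and SLC20A1 at -0.56 lie at the ends.

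The calls depended on how the close knockout libraries were counted. With knockout libraries 1 and 2 averaged and 3 and 4 averaged, limma called 0 of 124 SLC genes after adjustment and 21 at an unadjusted p under 0.05, against 1.20% (0.488% higher, 0.710% lower) and 20.6% of all tested genes. SLC20A1 then had an adjusted p of 0.0512, SLC25A10 0.0772 and SLC7A2 0.0842. Leaving out control library 1, 2, 3 or 4 called 4, 4, 18 and 2 of the 124, against 4.92%, 4.78%, 15.0% and 4.34% of all tested genes. Of the 13 calls, 4, 4, 10 and 2 were kept. Leaving out knockout library 1, 2, 3 or 4 called 9, 11, 7 and 10 of the 124, against 9.55%, 9.49%, 7.94% and 10.1% of all tested genes. Of the 13 calls, 9, 9, 6 and 10 were kept. The share of the calls among all tested genes that was kept was not examined. SLC20A1 and SLC25A10 were called in all 8 fits that left out a library. With no minimum mean, 9 of the 124 were called, all of them among the 13, where 8.30% of 13943 genes were called. A term for replicates 1-2 against 3-4 raised the calls to 29 (9 higher, 20 lower), the 13 included, where 25.2% of all tested genes were called (13.8% higher, 11.4% lower).

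The upstream sequences of 2 of these genes are shown because, among the 13 called, they had the largest falls. They are the bases from 250 to 101 before the RefSeq start, from RefSeq on GRCh38.p14, written 5′ to 3′ on the gene's strand, and capitals mark the motifs found by search. SLC20A1 is at chr2:112645689-112645838 (plus strand) and SLC7A5 at chr16:87869608-87869757 (minus strand).
SLC20A1: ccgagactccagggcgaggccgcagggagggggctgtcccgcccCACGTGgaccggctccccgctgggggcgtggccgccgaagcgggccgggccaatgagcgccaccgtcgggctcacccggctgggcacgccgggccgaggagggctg
SLC7A5: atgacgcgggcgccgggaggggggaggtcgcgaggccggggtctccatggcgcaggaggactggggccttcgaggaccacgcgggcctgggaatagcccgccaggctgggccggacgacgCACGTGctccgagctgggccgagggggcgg

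The capitals mark ACGTG, the core that hypoxia-inducible factors and many basic helix-loop-helix factors bind, found there on both strands as overlapping matches. Each motif was searched on both strands of the 250 bases before the start. ACGTG was present in 25 of the 101 SLC genes with a sequence (24.8%), in 24.9% of tested genes with one and in 18.7% of all 27305 promoters. It was present in 4 of the 9 called SLC genes with a sequence, the others being SLC22A17 and SLC25A39. TGCGCNC, a form of the metal response element, was present in 21.8% of the SLC genes, 28.0% of tested genes and 16.9% of all promoters. The other form, TGCACNC, was present in 7.92%, 8.84% and 9.73%. The amino acid response motif TGATGNAAT was in none of the 101, in 0.431% of tested genes and in 0.916% of all promoters. The palindromic lysosomal CLEAR element, which contains ACGTG, was in none of the 101, in 0.795% of tested genes and in 0.330% of all promoters. The NRF2-type motif TGACTCAGC was in 1 of the 101, in 0.310% of tested genes and in 0.465% of all promoters. These are letter matches only.

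Transport roles were assigned by SLC family number, so each role counts whole families, and single members may carry other substrates or lie elsewhere in the cell. Among 21 carriers of amino acids and peptides, 1 rose, 2 fell and 18 did not pass the test (14.3% called, against 13.1% of all tested genes). The median log2 fold change was -0.13, and 15 of 21 lay below 0 (71.4%, against 48.7% of all tested genes). Both sets of replicates gave the same sign for 19 of 21, with 14 lower in both, where 57.0% of all tested genes had the same sign and 26.7% were lower in both.

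SLC7A5 (LAT1) exchanges large neutral amino acids such as leucine across the plasma membrane. Its log2 values were 5.50, 5.46, 5.83 and 5.56 in control libraries 1 to 4 and 5.16, 5.23, 5.14 and 5.11 in knockout libraries 1 to 4. Every knockout library was below every control, and control library 3 was the highest. SLC7A5 fell by 0.43 ± 0.09 log2 units (SE; limma adjusted p = 0.0191), the change being -0.28 in replicates 1 and 2 but -0.57 in replicates 3 and 4. The call was lost without 1 of the 8 libraries, with a highest adjusted p of 0.0620.

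SLC3A2 (CD98hc), the glycoprotein that pairs with SLC7A5 to place it at the cell surface, showed another pattern. It was 7.24, 7.25, 7.14 and 7.20 in control libraries 1 to 4, and 7.48, 7.64, 6.69 and 6.63 in knockout libraries 1 to 4. Knockout libraries 1 and 2 were above all controls and knockout libraries 3 and 4 below them. The difference over 8 libraries was -0.10 ± 0.23 log2 units (SE; limma adjusted p = 0.811). Replicates 1 and 2 alone gave 0.32, and replicates 3 and 4 gave -0.51.

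SLC6A8 imports creatine. Its log2 values were 1.97, 2.10, 1.77 and 1.92 in control libraries 1 to 4 and 1.60, 1.59, 1.48 and 1.60 in knockout libraries 1 to 4, with no overlap. It fell by 0.37 ± 0.08 log2 units (SE; limma adjusted p = 0.0216), by 0.44 in replicates 1 and 2 and by 0.31 in replicates 3 and 4, and was called in 4 of the 8 fits that left out a library (adjusted p 0.0106 to 0.0706).

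SLC7A2 (CAT2), a carrier of arginine, lysine and ornithine, went the other way. It was 2.98, 2.93, 2.83 and 2.84 in control libraries 1 to 4 and 3.42, 3.43, 3.22 and 3.22 in knockout libraries 1 to 4. All knockout libraries were above all controls, and libraries 1 and 2 were the higher within each group. SLC7A2 rose by 0.43 ± 0.08 log2 units (SE; limma adjusted p = 0.0116), a 1.35-fold difference, with 0.47 and 0.39 in the sets of replicates, and was called in 7 of the 8 fits that left out a library (highest adjusted p 0.0507). The related arginine carriers did not pass the test: SLC7A1 (CAT1) differed by -0.23 ± 0.08 (SE; limma adjusted p = 0.105) and SLC7A3 (CAT3) by -0.53 ± 0.21 (SE; limma adjusted p = 0.128). In the fit blocked on the replicate number, the limma adjusted p of SLC7A3 was 0.0344.

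None of the 7 tested members of SLC1 and SLC38 passed the test, where 13.1% of all tested genes did. Of the 7, 4 lay below 0, against 48.7% of all tested genes. SLC1A5 (ASCT2), a main entry route of glutamine, was 6.00, 6.01, 5.99 and 5.95 in control libraries 1 to 4 and 5.69, 5.83, 5.81 and 5.81 in knockout libraries 1 to 4. The groups did not overlap, and the difference was -0.20 ± 0.06 log2 units (SE; limma adjusted p = 0.0584). For the serine and alanine carrier SLC1A4 (ASCT1) it was -0.25 ± 0.10 (SE; limma adjusted p = 0.140; -0.46 in replicates 1 and 2, -0.04 in replicates 3 and 4), and for the glutamine carrier SLC38A1 (SNAT1) it was -0.30 ± 0.09 (SE; limma adjusted p = 0.0597). SLC38A2 (SNAT2), the member of that family known to respond to amino acid shortage, differed by -0.13 ± 0.07 (SE; limma adjusted p = 0.258). The taurine importer SLC6A6, an osmolyte carrier, differed by -0.28 ± 0.12 (SE; limma adjusted p = 0.160) and the glycine importer SLC6A9 (GLYT1) by -0.42 ± 0.19 (SE; limma adjusted p = 0.178). SLC38A4, at 1.94 and 1.83 in knockout libraries 3 and 4, stood above all other libraries (0.44 to 1.01), with a difference of 0.51 over 8 libraries (limma adjusted p = 0.308). Its control mean was 0.79, so SLC38A4 met the level set for members only through its high knockout values, a choice that favours a rise. SLC38A10 and the lysosomal SLC38A9 differed by 0.29 and 0.09 (limma adjusted p = 0.567 and 0.697).

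**Figure D2:**
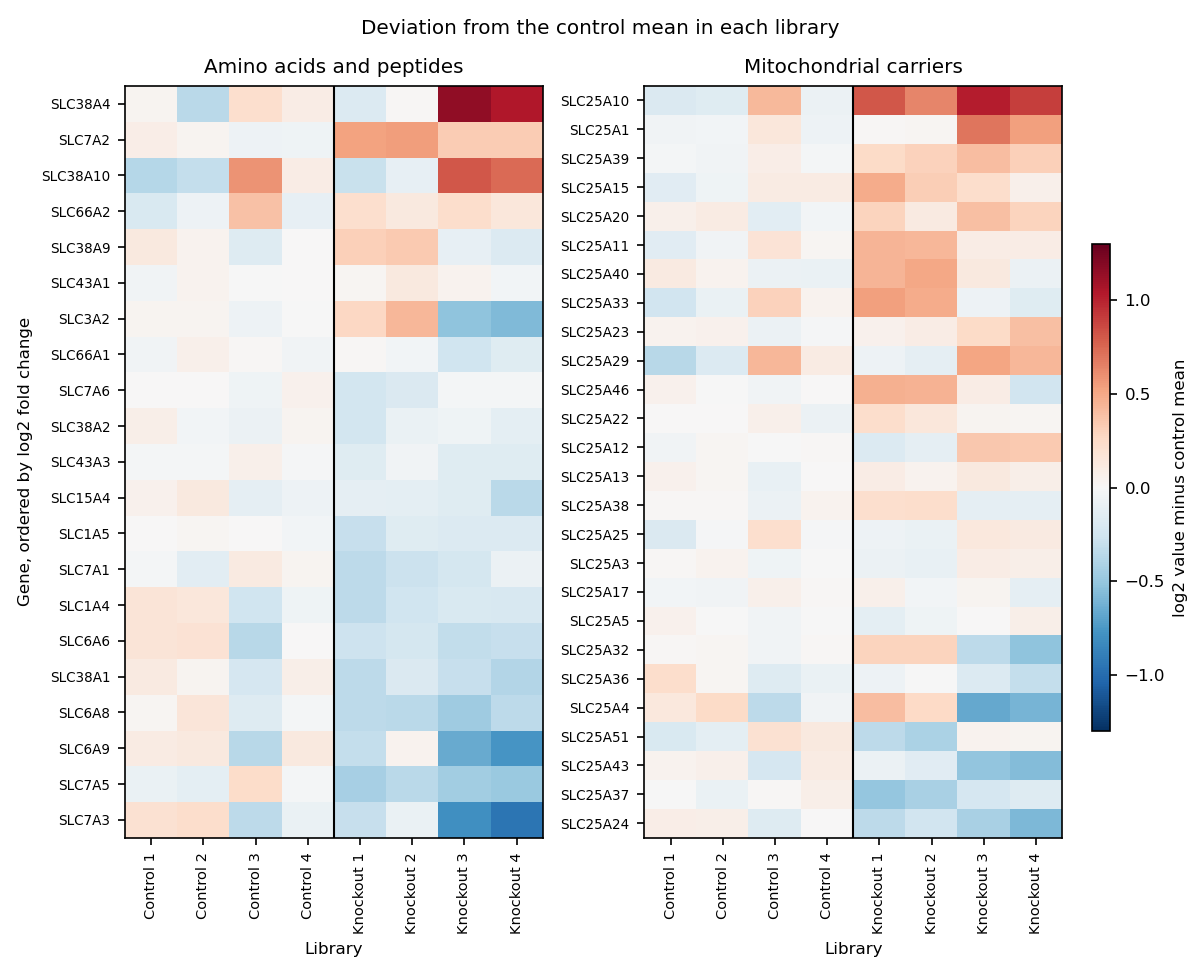
Deviation of each library from the control mean (colour, log2 units, blue lower and red higher) for the 21 amino acid and peptide carriers (left) and 26 of the 27 mitochondrial carriers (right), with control libraries 1 to 4 left of the line and knockout libraries 1 to 4 right of it. SLC7A5 and SLC6A8 are blue in all 4 knockout libraries and SLC25A10 is red in all 4, while SLC3A2 is red in knockout libraries 1 and 2 and blue in 3 and 4.

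Of the 27 members of family SLC25, counted here as mitochondrial carriers by family, 3 rose, 2 fell and 22 did not pass the test (18.5% called, against 13.1% of all tested genes). The median log2 fold change was 0.10, and 17 of 27 lay above 0 (63.0%, against 51.3% of all tested genes). Both sets of replicates gave values above 0 for 13 of 27 (48.1%), where 30.4% of all tested genes were higher in both. Of the 47 SLC25 symbols considered, 20 did not meet the criteria for members.

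SLC25A10 exchanges malate and succinate for phosphate across the inner membrane. It was 2.53, 2.56, 3.14 and 2.65 in control libraries 1 to 4 and 3.53, 3.35, 3.74 and 3.62 in knockout libraries 1 to 4. All knockout libraries were above all controls, and library 3 was the highest of each group. SLC25A10 rose from 2.72 ± 0.29 to 3.56 ± 0.16 (SD, n = 4 each), by 0.84 ± 0.15 log2 units or 1.79-fold (SE; limma adjusted p = 0.0102). It came to 0.89 in replicates 1 and 2 alone and to 0.79 in replicates 3 and 4 alone.

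SLC25A39 imports glutathione into mitochondria. Its log2 values were 5.00, 4.99, 5.11 and 5.00 in control libraries 1 to 4 and 5.27, 5.33, 5.43 and 5.34 in knockout libraries 1 to 4, with no overlap. It rose by 0.32 ± 0.06 log2 units (SE; limma adjusted p = 0.0168), with nearly equal changes of 0.31 and 0.32 in the sets of replicates, and was called in 5 of the 8 fits that left out a library (highest adjusted p 0.0677). Its paralogue SLC25A40 differed by 0.25, with a limma adjusted p of 0.244. The control mean of SLC25A40 was 0.992, and it met the level set for members only through its knockout mean of 1.24.

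SLC25A24, an ATP-Mg/phosphate carrier regulated by calcium, fell. It was 4.10, 4.09, 3.84 and 4.02 in control libraries 1 to 4 and 3.67, 3.76, 3.59 and 3.43 in knockout libraries 1 to 4, with every knockout library below every control. The difference was -0.40 ± 0.09 log2 units (SE; limma adjusted p = 0.0291), -0.38 and -0.42 in the sets of replicates, and the call held in 3 of the 8 fits that left out a library (highest adjusted p 0.0941). Its paralogues SLC25A23 and SLC25A25 differed by 0.20 and 0.03, with limma adjusted p-values of 0.170 and 0.890.

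SLC25A37 (mitoferrin 1) brings iron into mitochondria for haem and iron-sulfur clusters. It was 3.48, 3.40, 3.50 and 3.56 in control libraries 1 to 4 and 2.98, 3.06, 3.26 and 3.32 in knockout libraries 1 to 4. The groups did not overlap, and knockout libraries 1 and 2 were the lowest. It fell by 0.33 ± 0.09 log2 units (SE; limma adjusted p = 0.0459), by 0.42 in replicates 1 and 2 and by 0.24 in replicates 3 and 4. The adjusted p was 0.0527 with the replicate block and 0.0354 to 0.135 when a library was left out, with 1 of 8 such fits keeping the call.

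The housekeeping carriers of oxidative phosphorylation did not pass the test and had small differences. SLC25A5, the main ADP/ATP exchanger of proliferating cells, averaged 8.85 ± 0.04 over the controls and 8.82 ± 0.08 over the knockout libraries (SD, n = 4 each; limma adjusted p = 0.819). Processed copies of SLC25A5 are known in the genome, and how reads shared with them were counted is not given in the sources used here. SLC25A3, which imports phosphate for ATP synthesis, was 6.21 ± 0.04 and 6.20 ± 0.10 (SD, n = 4 each; limma adjusted p = 0.986). The citrate exporter SLC25A1 was 4.71 and 4.55 in knockout libraries 3 and 4, above all other libraries (3.96 to 4.17), and the oxoglutarate/malate carrier SLC25A11 was 5.00 and 4.99 in knockout libraries 1 and 2, above all others (4.40 to 4.73). Neither passed the test over 8 libraries, with limma adjusted p-values of 0.222 and 0.151.

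**Figure D3:**
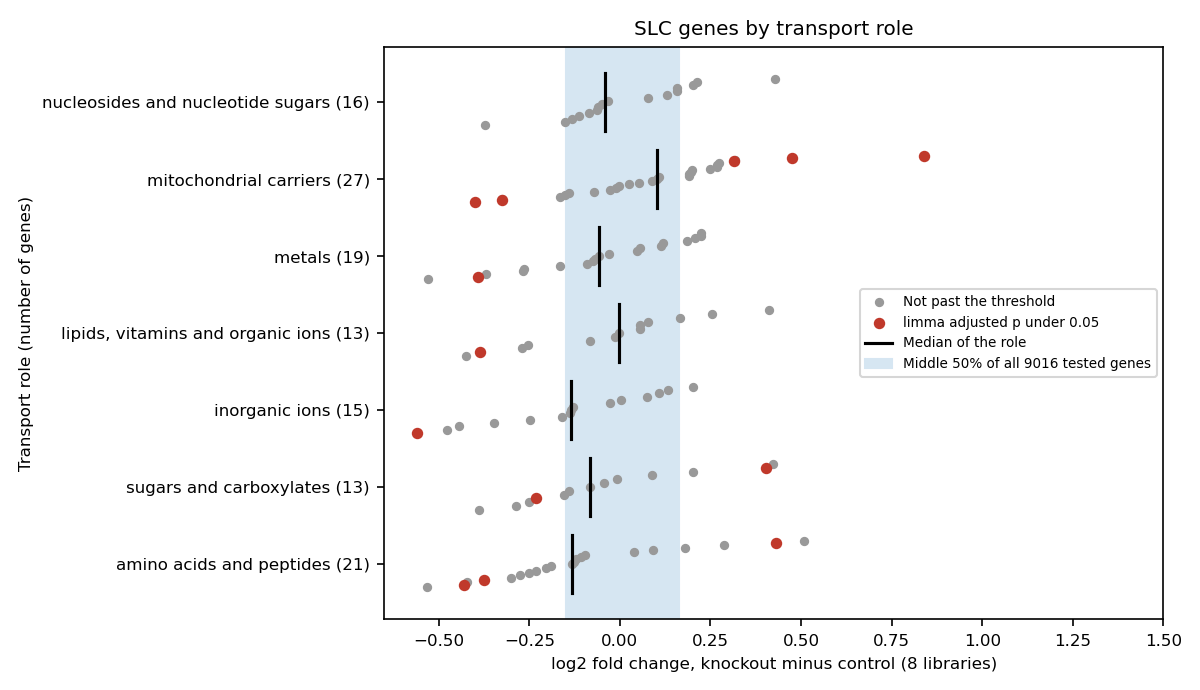
Log2 fold change, knockout minus control, of each of the 124 SLC genes (horizontal axis), grouped by transport role with the number of genes in parentheses. Red points passed a limma adjusted p of 0.05, black lines are role medians, and the blue band holds the middle 50% of all tested genes. The median of the mitochondrial carriers is 0.10 and that of the amino acid carriers -0.13, both inside the band.

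Among 15 carriers of inorganic ions, 1 fell and none rose (6.67% called, against 13.1% of all tested genes). SLC20A1 (PiT-1) is a sodium-coupled phosphate importer, known for its part in the mineralization of bone matrix and as a retrovirus receptor. Its log2 values were 7.77, 7.78, 8.00 and 7.87 in control libraries 1 to 4 and 7.28, 7.31, 7.27 and 7.33 in knockout libraries 1 to 4. The knockout libraries spanned a narrow range below all controls. It fell from 7.86 ± 0.11 to 7.30 ± 0.03 (SD, n = 4 each), by 0.56 ± 0.07 log2 units (SE; limma adjusted p = 0.00316), to 0.678 of the control level. Replicates 1 and 2 gave -0.48 and replicates 3 and 4 gave -0.64, and the adjusted p was 0.00357 to 0.0206 when a library was left out.

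Its paralogue SLC20A2 (PiT-2) averaged 1.99 ± 0.10 over the controls and 1.85 ± 0.01 over the knockout libraries (SD, n = 4 each). The groups did not overlap, but the difference of -0.14 had a limma adjusted p of 0.204. XPR1, the phosphate exporter, and ANKH, which exports pyrophosphate and citrate, differed by -0.17 and -0.26, and neither passed the test (limma adjusted p = 0.346 and 0.191). The sulfate importer SLC26A2, mutated in chondrodysplasias, was 2.42, 2.32, 2.82 and 2.52 in control libraries 1 to 4 and 2.32, 2.31, 2.04 and 2.02 in knockout libraries 1 to 4. Its difference of -0.35 ± 0.12 did not pass the test (SE; limma adjusted p = 0.103).

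The regulators of cell volume and pH showed no call. The chloride importer SLC12A2 (NKCC1) averaged 1.44 ± 0.03 over the controls and 1.58 ± 0.06 over the knockout libraries (SD, n = 4 each; limma adjusted p = 0.176). The groups were only just apart, with the highest control at 1.484 and the lowest knockout library at 1.488. The anion exchanger SLC26A6 differed by -0.48 ± 0.15 (SE; limma adjusted p = 0.0640), with -0.82 in replicates 1 and 2 and -0.14 in replicates 3 and 4. SLC12A8 differed by -0.44 ± 0.18 (SE; limma adjusted p = 0.143), with nearly all of that in replicates 1 and 2 (-0.90 against 0.01). SLC9A7, a sodium/proton exchanger of the trans-Golgi network, was 3.33 to 3.40 in the controls, 2.61 and 2.66 in knockout libraries 1 and 2 and 3.56 and 3.59 in knockout libraries 3 and 4.

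Among 19 carriers of metals, 1 fell and none rose (5.26% called, against 13.1% of all tested genes). SLC39A13 (ZIP13) moves zinc out of intracellular vesicles, and its loss causes a form of Ehlers-Danlos syndrome with skeletal changes. It was 2.90, 2.96, 3.12 and 3.01 in control libraries 1 to 4 and 2.72, 2.72, 2.54 and 2.45 in knockout libraries 1 to 4. Every knockout library was below every control, and knockout libraries 3 and 4 were the lowest. The difference was -0.39 ± 0.09 log2 units (SE; limma adjusted p = 0.0240), larger in replicates 3 and 4 (-0.57) than in replicates 1 and 2 (-0.21). The adjusted p was 0.0613 with the replicate block and 0.0315 to 0.0777 when a library was left out.

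The sets of replicates gave the same sign for 9 of 19 metal carriers, 3 higher and 6 lower in both, against 57.0% of all tested genes. The log2 fold change was above 0 for 12 of 19 in replicates 1 and 2 (median 0.16) and for 4 of 19 in replicates 3 and 4 (median -0.15), where 54.0% and 49.7% of all tested genes were above 0. Whether the sets differ was not tested. SLC39A8 (ZIP8), an importer of zinc and manganese, was 1.94, 1.76, 1.79 and 1.81 in control libraries 1 to 4 and 2.26, 2.35, 0.73 and 0.47 in knockout libraries 1 to 4. Knockout libraries 1 and 2 were the highest and 3 and 4 the lowest of all, so that the knockout SD of 0.99 was the largest of the 124 genes. The zinc importer SLC39A1 (ZIP1) was 5.24 to 5.35 in the controls, 5.55 and 5.48 in knockout libraries 1 and 2 and 4.90 and 4.93 in 3 and 4.

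Other zinc, copper and haem carriers did not pass the test. The zinc exporter SLC30A1 (ZnT1), a target of the metal-responsive factor MTF1, was 1.39 ± 0.09 and 1.62 ± 0.26 (SD, n = 4 each; limma adjusted p = 0.276), and the high values were 1.83 and 1.84 in knockout libraries 1 and 2. SLC30A9 differed by -0.53 ± 0.19 (SE; limma adjusted p = 0.105) and had an adjusted p of 0.0435 with the replicate block. SLC39A6 and the haem carrier SLC48A1 were higher and SLC39A7 lower in every knockout library than in every control, with differences of 0.19, 0.22 and -0.27 and limma adjusted p-values of 0.0855, 0.0690 and 0.127. SLC39A14, a carrier of iron, zinc and manganese, and the copper importer SLC31A1 differed by -0.07 and 0.11 (limma adjusted p = 0.736 and 0.654).

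Among 13 carriers of sugars and carboxylates, 1 rose and 1 fell (15.4% called, against 13.1% of all tested genes). SLC37A4, which takes glucose-6-phosphate into the endoplasmic reticulum, was 2.52, 2.65, 2.86 and 2.58 in control libraries 1 to 4 and 3.03, 2.96, 3.15 and 3.08 in knockout libraries 1 to 4. All knockout libraries were above all controls. It rose by 0.40 ± 0.09 log2 units (SE; limma adjusted p = 0.0226), by 0.41 and 0.40 in the sets of replicates, and was called in 4 of the 8 fits that left out a library (highest adjusted p 0.0792). TRAPPC4, which overlaps SLC37A4 in RefSeq, differed by 0.09 with a limma adjusted p of 0.595.

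SLC37A3, which works with ATRAID in releasing bisphosphonates from lysosomes, was 3.10, 3.12, 3.07 and 3.05 in control libraries 1 to 4 and 2.93, 2.92, 2.81 and 2.76 in knockout libraries 1 to 4. The controls were tightly grouped above all knockout libraries. It fell by 0.23 ± 0.06 log2 units (SE; limma adjusted p = 0.0481), by 0.19 in replicates 1 and 2 and by 0.28 in replicates 3 and 4. The adjusted p was 0.0809 with the replicate block and 0.0571 to 0.140 when a library was left out, so that no such fit kept the call. The third tested member of the family, SLC37A2, was 2.36 to 2.75 in the controls, 2.59 and 2.66 in knockout libraries 1 and 2 and 1.55 and 1.65 in 3 and 4 (limma adjusted p = 0.363).

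The lactate and pyruvate carrier SLC16A1 (MCT1) was 5.45 ± 0.04 and 5.30 ± 0.10 (SD, n = 4 each; limma adjusted p = 0.212), and BSG, its chaperone, differed by -0.08 (limma adjusted p = 0.525). The vitamin importer SLC5A6, for biotin and pantothenate, was higher by 0.42 ± 0.12 (SE; limma adjusted p = 0.0525), and with the replicate block its adjusted p was 0.0451. The osmolyte importer of myo-inositol, SLC5A3, differed by -0.29 ± 0.12 (SE; limma adjusted p = 0.151), with -0.56 in replicates 1 and 2 and -0.02 in replicates 3 and 4. Of the carriers set aside by name, the glucose importer SLC2A3 (GLUT3) fell by 0.59 ± 0.10 (SE; limma adjusted p = 0.00864), while SLC2A1, SLC16A3 and SLC7A11 differed by -0.24, -0.30 and -0.26 and did not pass the test (limma adjusted p = 0.110, 0.125 and 0.340).

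Among 13 carriers of lipids, vitamins and organic ions, 1 fell and none rose (7.69% called, against 13.1% of all tested genes). SLC22A17, known as a receptor for the iron-binding protein lipocalin 2, was 2.62, 2.73, 2.73 and 2.58 in control libraries 1 to 4 and 2.16, 2.12, 2.53 and 2.31 in knockout libraries 1 to 4. Knockout library 3 lay just below the lowest control, and the sets of replicates gave -0.54 and -0.24. SLC22A17 fell by 0.39 ± 0.10 log2 units (SE; limma adjusted p = 0.0364), with an adjusted p of 0.0533 under the replicate block and of 0.0191 to 0.110 when a library was left out, where 1 of 8 fits kept the call. SLC33A1, the acetyl-CoA carrier of the endoplasmic reticulum, differed by -0.42 ± 0.17 (SE; limma adjusted p = 0.132, and 0.0383 with the block). The choline carrier SLC44A1 was 2.17 to 2.33 in the controls, 2.10 and 2.10 in knockout libraries 1 and 2 and 2.59 and 2.55 in 3 and 4 (limma adjusted p = 0.723). The reduced folate carrier SLC19A1 had a mean under 1 and was not tested.

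None of 16 carriers of nucleosides and nucleotide sugars passed the limma test, where 13.1% of all tested genes did. Of the 16, 2 had an unadjusted p under 0.05 (12.5%, against 29.7% of all tested genes). The nucleoside carrier SLC29A1 (ENT1) averaged 4.12 ± 0.06 over the controls and 4.07 ± 0.03 over the knockout libraries (SD, n = 4 each; limma adjusted p = 0.618). SLC35B2 brings the sulfate donor PAPS into the Golgi for the sulfation of glycosaminoglycans. It was 4.35, 4.43, 4.68 and 4.39 in control libraries 1 to 4 and 4.31, 4.35, 3.90 and 3.80 in knockout libraries 1 to 4, with a limma adjusted p of 0.120. SLC35D1, which supplies nucleotide sugars for chondroitin sulfate, differed by 0.43 ± 0.15 (SE; limma adjusted p = 0.0891), and the UDP-galactose carrier SLC35A2 by 0.20 ± 0.14 (SE; limma adjusted p = 0.367; 0.41 in replicates 1 and 2, -0.01 in replicates 3 and 4). The control mean of SLC35D1 was 0.95, and it met the level set for members only through its knockout mean of 1.38, a choice that favours a rise.

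When limma was fitted with the replicate as a block, it called 12 of 124 SLC genes, 5 higher and 7 lower, against 10.2% of all tested genes (5.68% higher, 4.57% lower). Of the 13, 8 were called in both fits. SLC22A17, SLC25A37, SLC37A3 and SLC39A13 were among the 5 that no longer passed, and SLC5A6, SLC7A3, SLC30A9 and SLC33A1 did.

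Within replicates 1 and 2 limma called 73 SLC genes, 42 of them higher, and within replicates 3 and 4 it called 42, of which 13 were higher. The shares of all tested genes were 59.7% (33.0% higher) and 33.1% (15.7% higher). In these fits, each with 2 libraries a group, the spread comes only from the pair of libraries in each group. The distance over the SLC genes was 0.10 between control libraries 1 and 2 and 0.10 between knockout libraries 1 and 2. It was 0.21 between control libraries 3 and 4 and 0.11 between knockout libraries 3 and 4, so the pairs were not equally close. Both sets called 25 of 124 SLC genes and 1903 of 9016 tested genes, a similar share. Of the 25 SLC genes, 4 were higher in both, 11 lower in both and 10 opposite in sign (40.0%). Of the tested genes called in both, 33.8% were opposite, and how the others divided into higher and lower was not examined. SLC25A10, SLC25A39, SLC37A4 and SLC7A2 were the 4 higher in both. Those lower in both were SLC20A1, SLC25A24, SLC25A43, SLC30A9, SLC33A1, SLC37A3, SLC39A13, SLC39A7, SLC6A8, SLC7A3 and SLC7A5.

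**Figure D4:**
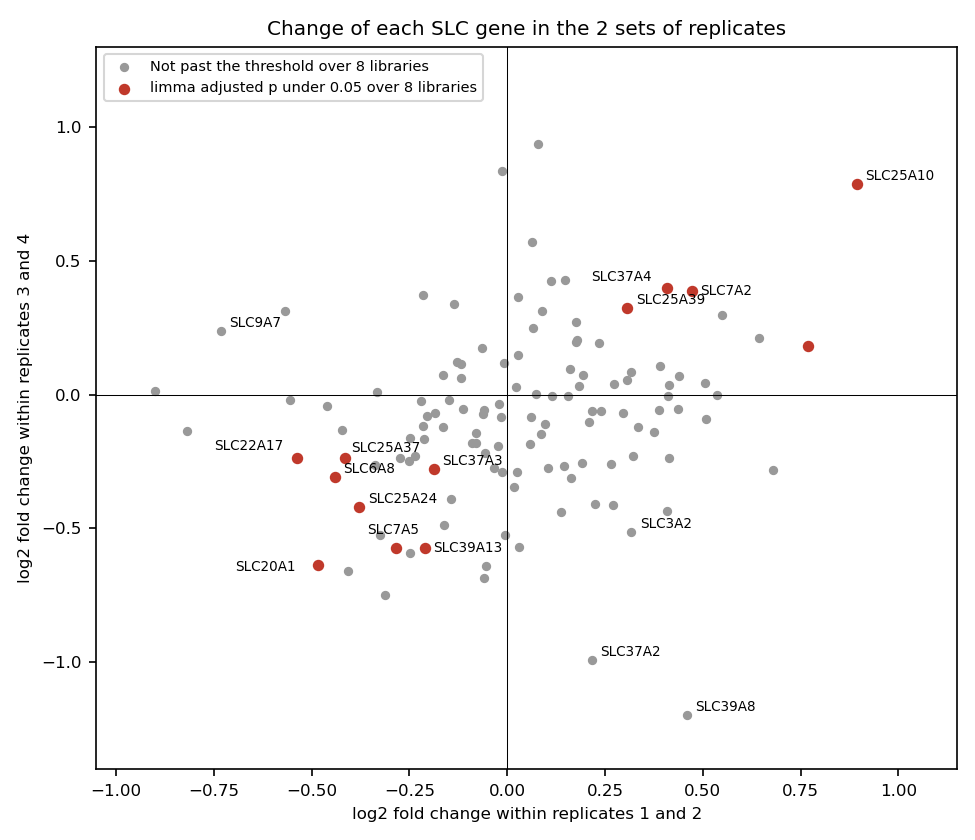
Log2 fold change, knockout minus control, of each of the 124 SLC genes within replicates 1 and 2 (horizontal axis) and within replicates 3 and 4 (vertical axis). Red points passed a limma adjusted p of 0.05 over all 8 libraries and lie in the lower left and upper right, while SLC39A8, at 0.46 and -1.20, and SLC3A2, at 0.32 and -0.51, lie in the lower right.

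The 10 with opposite signs came from 7 roles and included SLC3A2, SLC37A2, SLC39A1, SLC39A8 and SLC44A1, described above. SLC10A4, SLC25A32, SLC30A6 and SLC35B1 were also among them. SLC25A32, which carries folate or FAD into mitochondria, was 4.12 to 4.19 in the controls, 4.46 and 4.46 in knockout libraries 1 and 2 and 3.83 and 3.65 in 3 and 4. Every knockout library lay outside the control range of SLC25A32, on opposite sides.

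**Figure D5:**
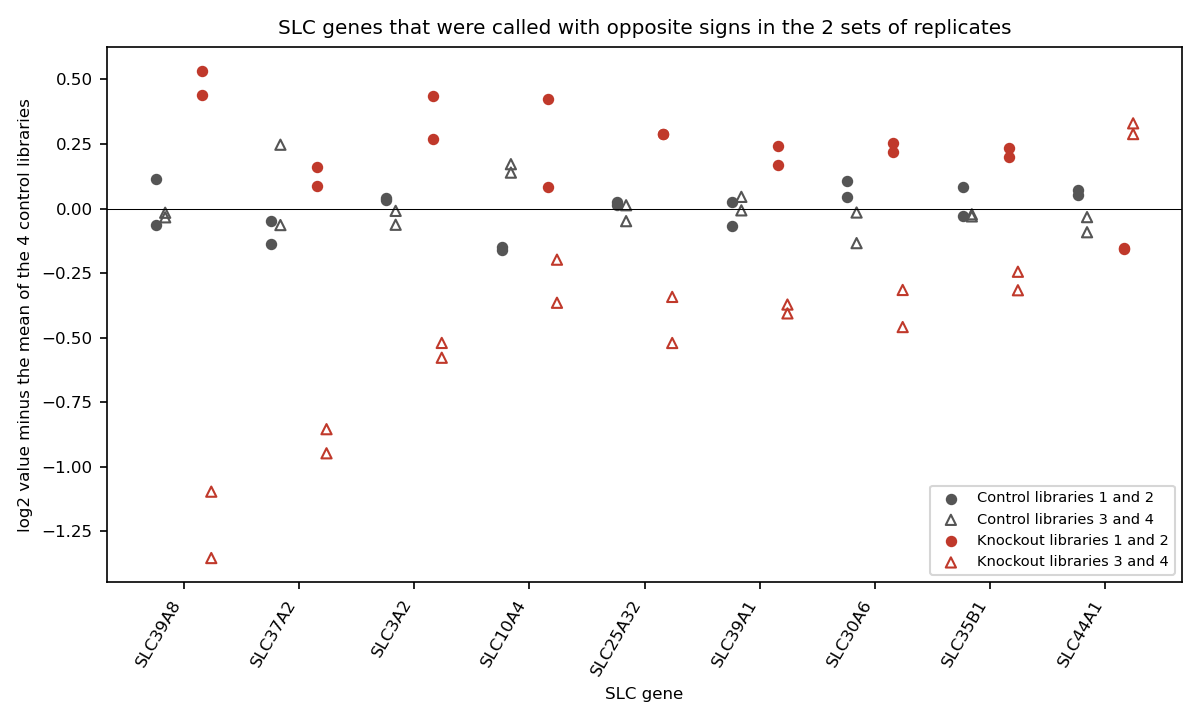
Deposited log2 value minus the mean of the 4 control libraries (vertical axis, log2 units) for 9 of the 10 SLC genes called within both sets of replicates with opposite signs. Grey marks are control and red marks knockout libraries, filled circles are libraries 1 and 2 and open triangles libraries 3 and 4. In SLC39A8 the knockout libraries span 0.47 to 2.35 before centring, while its controls lie between 1.76 and 1.94.

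Transport genes outside the SLC nomenclature were examined from lists of general knowledge. Of 21 tested carriers, 1 rose and 2 fell, where 7.02% of all tested genes were called higher and 6.10% lower. MPC1, a subunit of the mitochondrial pyruvate carrier, rose by 0.57 ± 0.16 log2 units (SE; limma adjusted p = 0.0496), by 0.93 in replicates 1 and 2 and by 0.21 in replicates 3 and 4. Its adjusted p was 0.0793 with the replicate block, and 2 of the 8 fits that left out a library kept the call (highest adjusted p 0.133). Its partner MPC2 was higher by 0.53 with a limma adjusted p of 0.0693, and of 0.0437 with the block. MFSD10 fell by 0.55 ± 0.09 and the organic anion carrier SLCO4A1 fell by 0.69 ± 0.17 (SE; limma adjusted p = 0.00922 and 0.0333). All 8 fits that left out a library kept the MFSD10 call, and 3 kept the SLCO4A1 call (highest limma adjusted p 0.0404 and 0.103). None of 12 tested partners and regulators passed the limma test, and 3 of them had an unadjusted p under 0.05. The shares of all tested genes were 13.1% and 29.7%. Of 4 tested sodium pump genes, ATP1B3, a beta subunit, rose by 0.25 ± 0.06 (SE; limma adjusted p = 0.0281). Its adjusted p was 0.0682 with the replicate block, and 1 of the 8 fits that left out a library kept the call (highest adjusted p 0.0888).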

How the data were processed

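RNA of 8 libraries (4 control, 4 knockout) was extracted with TRIzol and made into stranded total-RNA libraries, per the labels' protocols. The submitters' processing notes name bcl2fastq, Partek 7.0 and GRCh38; the aligner, counter and annotation are not given in the sources used here. The deposited log2 values, 1 per gene symbol and library, had the same distribution in every library, as quantile normalization leaves them; no source used here states that step. Base 2 was inferred from their range, the unit before the logarithm is unknown, and levels of different genes were not compared. No counts are given, so depth and counting error are unknown, and every change is one relative to the other genes.

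Each column was matched to its sample by description, and groups and numbers came from the titles. Genes valued in all 8 libraries with a mean of at least 1 entered limma (version 3.58.1, R 4.3.3; lmFit and eBayes, no covariate), and p-values were adjusted by Benjamini-Hochberg over all 9016. The fit was tested on simulated data. Members and lists were chosen with earlier results of these data known. The genes named were called members whose groups did not overlap (up to 12 per direction), the strongest called member of each role, 22 well-known carriers, the 3 members with the most opposed changes in the sets of replicates and called genes of the lists; others were named after their values were seen. SLC25A6, among the 22, was not analysed here. A few genes and 1 sequence are not reported here, although the genes stay in the counts.

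Deviations from the group means of same-numbered control and knockout libraries correlated across genes at 0.20 to 0.29 in all 4 pairs, so the numbers were taken to pair the libraries, although different numbers within 1-2 (0.25 and 0.31) and within 3-4 (0.25 and 0.11) also correlated, and those between the sets did so negatively (-0.30 to -0.15). The fit with the replicate number as a block is given where it changes a call. Other settings were a pseudocount of 1, a variance trend, no minimum mean or one of 3, centring on medians, repeating the quantile step, an adjusted p under 0.01, averaged knockout pairs, a term for replicates 1-2 against 3-4, either set of replicates alone and leaving out each library. Upstream sequences came from RefSeq (GRCh38.p14) and were found for 101 of 124 members.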

Additional observations from a re-analysis of the deposited data

Results flagged for a closer look

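Each group of 4 libraries was searched for a library far from the other 3 for the named genes and called list genes, over 80 groups. Chance flags about 1 group in 20, and 3 were found. Knockout library 1 had the lowest SLC1A5 value, 5.69, with the others between 5.81 and 5.83. Knockout library 3 had the lowest SLC6A8 value, 1.48, with the others between 1.59 and 1.60. Control library 3 had the highest SLC25A39 value, 5.11, with the others between 4.99 and 5.00.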

How the results depend on the processing

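Of 13 called members (5 higher, 8 lower), median centring, a further quantile normalization and a pseudocount of 1 kept all 13 calls, a variance trend kept 12, and the replicate block kept 8 among 12 calls. With no minimum mean 9 members were called, 5 of them lower; a mean of at least 3 left 10. A term for replicates 1-2 against 3-4 gave 29 (9 higher, 20 lower), replicates 1 and 2 alone 73 (42 higher, 31 lower), replicates 3 and 4 alone 42 (13 higher, 29 lower), averaged knockout pairs 0 (0 higher, 0 lower; 21 at an unadjusted p under 0.05), and an adjusted p under 0.01 gave 1 (0 higher, 1 lower, SLC20A1). Leaving out each library in turn gave 2 to 18 called members, 1 to 9 higher and 1 to 9 lower. No called member changed sign under any of these settings; the cause of the lost calls was not tested, apart from the fewer libraries or stricter threshold of some settings.

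Uncalled named members changed sign as follows. In replicates 1 and 2 alone, SLC3A2 was 0.32, SLC37A2 0.22, SLC39A8 0.46 and SLC44A1 -0.22. In replicates 3 and 4 alone, SLC9A7 was 0.24, SLC25A3 0.11, SLC25A5 0.064, SLC31A1 -0.069 and SLC35A2 -0.0060. When a library was left out, SLC3A2 ran from -0.28 to 0.062, SLC25A3 from -0.034 to 0.030, SLC25A5 from -0.061 to 0.0058 and SLC44A1 from -0.0065 to 0.16. The cause was not tested. Depth is unknown, so what it limits cannot be stated.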

Other observations

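SLC genes below the level set for members were looked at in the fit with no minimum mean. Of 109 such genes valued in all 8 libraries, 9 had a limma adjusted p under 0.05, where 8.30% of all genes in that fit were called. SLC35G1 rose by 0.71 log2 units (limma adjusted p = 0.00343), from 0.51 ± 0.06 to 1.22 ± 0.07 (SD, n = 4 each), and the folate carrier SLC46A1 rose by 0.43 (limma adjusted p = 0.0461). SLC2A10 (GLUT10), mutated in arterial tortuosity syndrome, fell by 0.52, and the lysosomal nucleoside carrier SLC29A3 fell by 0.47 (limma adjusted p = 0.0233 and 0.0248). SLC16A6 fell by 0.45 and SLC16A10, an aromatic amino acid carrier, rose by 0.53 (limma adjusted p = 0.0286 and 0.0330). SLC30A3, SLC25A48 and SLC16A12 rose by 1.67, 1.49 and 1.45 (limma adjusted p = 0.0132, 0.0233 and 0.0451) at control means of -3.90, -4.98 and -5.42.

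Among 68 SLC genes with a value in 1 to 7 libraries, the highest value was -3.11. SLC22A31 alone was valued in all libraries of a group and in none of the other: it was -4.06, -3.46, -4.16 and -3.20 in control libraries 1 to 4 and blank in all knockout libraries. Of the other 67, 11 were blank in all controls and 6 in all knockouts.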
